A study of Sus scrofa with 5 samples.

Results

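The cells described here were cecal fibroblasts of suckling piglets that held RNA of OGN but none of ADAMDEC1 or WNT5A, called OGN fibroblasts below. A barcode was counted as one of them when it had at least 200 detected genes, at least 5 UMIs (unique molecular identifiers, which stand for single captured RNA molecules) over COL1A1, COL1A2, COL3A1, DCN and LUM with at least 2 of these genes detected, at least 1 UMI of OGN, at most 2 UMIs each of ACTG2 (smooth muscle) and RGS5 (pericytes), and 0 UMIs of ADAMDEC1, WNT5A and PTPRC (leukocytes). This gate found 429 of the 72701 barcodes with at least 200 genes, or 0.590%. The study's methods set a lower number of cells per library than there are barcodes in the matrices, so a share of kept barcodes is not a share of the cells the study used. The cells were thus chosen by their measured counts of these 11 genes, whose levels are a description of the choice and carry no test.

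The cells came from the cecal mucosa of Large White piglets at birth (d0) and at 1, 7, 14 and 21 days of age (d1, d7, d14 and d21). The piglets were males by the labels, were born at full term and were fed maternal milk only, with no treatment or genotype that differed between ages. The cells of 5 piglets were mixed into 1 library per age, so there were 5 libraries and no replicate of an age, and an effect of age cannot be told apart from that of its library. The mucosa was taken apart with EDTA and a short trypsin step.

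Osteoglycin, the product of OGN, is a small leucine-rich proteoglycan (SLRP), one of a family of secreted proteins that sit on collagen fibrils and influence how the fibrils assemble. Its relatives include decorin (DCN), lumican (LUM), biglycan (BGN), fibromodulin (FMOD), asporin (ASPN) and PRELP. In the gut wall such matrix is laid down by fibroblasts of the lamina propria and of deeper layers, while ADAMDEC1, a secreted metalloprotease, is a known marker of lamina propria fibroblasts and WNT5A a ligand made by fibroblasts under the epithelium. In the pig genome (Sscrofa11.1) OGN lies on chromosome 3 at 42116521 to 42135940, beside OMD (42142603 to 42155032), ASPN (42165553 to 42192902) and ECM2 (42205246 to 42243746). DCN (91678601 to 91713925) and LUM (91748871 to 91756381) are neighbours on chromosome 5, and FMOD (64062995 to 64073853) and PRELP (64190978 to 64207008) lie near each other on chromosome 9.

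The d1 library held most of the OGN fibroblasts. There were 23 at d0, 325 at d1, 6 at d7, 11 at d14 and 64 at d21, so that 75.8% of them came from d1. Among gated fibroblasts, the barcodes that met the conditions on all genes but OGN, ADAMDEC1 and WNT5A, which numbered 98, 3013, 174, 1749 and 693, they made up 23.5% at d0 (95% exact Clopper-Pearson interval 15.5 to 33.1), 10.8% at d1 (9.70 to 11.9), 3.45% at d7 (1.28 to 7.35), 0.629% at d14 (0.314 to 1.12) and 9.24% at d21 (7.18 to 11.6). The d14 share thus lay below the interval of every other library, and the d1 and d21 intervals overlapped. The intervals hold the error of counting alone, and the spread among piglets is not in them. As a share of all kept barcodes the OGN fibroblasts were 0.151%, 2.30%, 0.0584%, 0.0680% and 0.379%, while gated fibroblasts as a whole were 0.644%, 21.3%, 1.69%, 10.8% and 4.10%.

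**Figure D1:**
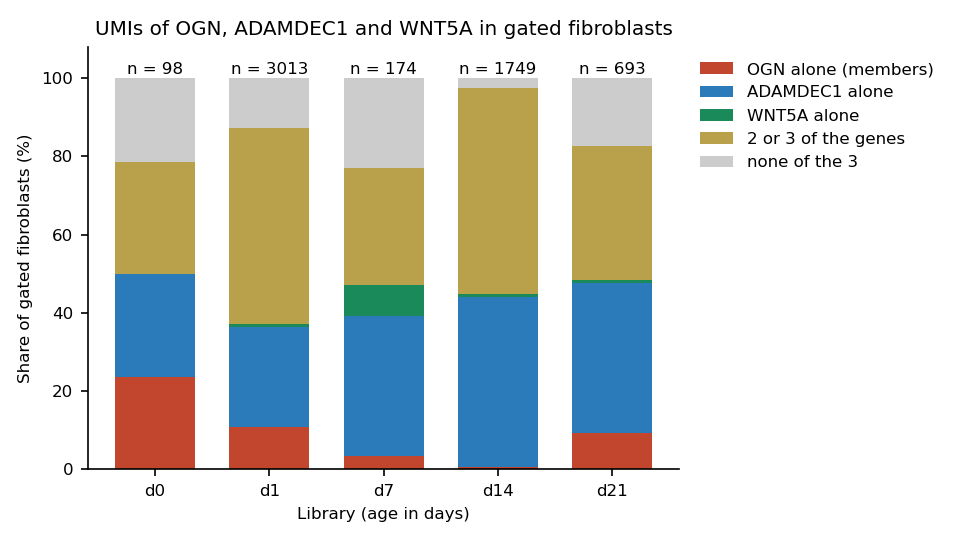
Share of the gated fibroblasts of each library (%) with UMIs of OGN alone, ADAMDEC1 alone, WNT5A alone, 2 or 3 of these genes, or none; each bar is 1 library. The OGN-alone share is 23.5% at d0 and 0.629% at d14, and the cells with 2 or 3 of the genes make up 48.0% of all gated fibroblasts.

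OGN itself was far more widespread than the gate's class. A UMI of OGN was found in 51.0%, 56.5%, 20.7%, 40.7% and 39.7% of the gated fibroblasts in the 5 libraries from d0 to d21. Of these 2774 cells 15.5% were OGN fibroblasts, and the rest held at least 1 UMI of ADAMDEC1 or WNT5A. The share was 46.0%, 19.1%, 16.7%, 1.55% and 23.3% by library. Cells with both OGN and ADAMDEC1 numbered 23, 1285, 29, 682 and 193, and cells with ADAMDEC1 alone 26, 774, 62, 760 and 266. At d14, then, nearly all fibroblasts with OGN also held ADAMDEC1 or WNT5A.

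The depth of the cells differed between these classes. The median UMI count of the OGN fibroblasts was 1663 at d0, 2355 at d1, 2084.5 at d7, 3230 at d14 and 2169 at d21, against 2203, 2840, 3760, 4896.5 and 2682 in the cells with both OGN and ADAMDEC1 and 1915, 2611.5, 2285, 2606 and 1955 in those with ADAMDEC1 alone. OGN fibroblasts were thus shallower than the cells with both genes in each library, and shallower than those with ADAMDEC1 alone at d0, d1 and d7 but deeper at d14 and d21. A cell with fewer UMIs has a higher chance of showing 0 of a gene it expresses, and the part of depth in the class was not tested beyond fits on cells thinned to 1000 UMIs, given with each comparison. The OGN fibroblasts carried 58385, 1106428, 12506, 30007 and 164876 counts in all. A count of 0, taken to allow 3 counts, thus allows a level of up to 0.514, 0.0271, 2.40, 1.00 and 0.182, where a level is the summed count of a gene per 10000 counts of these cells. No barcode of an OGN fibroblast was shared between libraries.

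OGN was counted at low numbers per cell. Of the 429 cells, 44.3% had 1 UMI of OGN, 19.3% had 2, 28.7% had 3 to 5 and 7.69% had 6 or more, with a median of 2 and a highest count of 12. The OGN level was 9.59 at d0 (95% exact Poisson interval 7.25 to 12.5), 7.22 at d1 (6.73 to 7.74), 9.60 at d7 (4.96 to 16.8), 8.998 at d14 (5.93 to 13.1) and 9.95 at d21 (8.48 to 11.6). For a measure of free RNA, cells with at least 3 UMIs each of the epithelial genes EPCAM and KRT8 had OGN in 6.75% of cases at d1 and in 3.57% at d21, and in 1.06% of the d1 cells once each cell was thinned to 1000 UMIs. The epithelial cells were deeper, with a median of 10336 UMIs at d1 and 8773 at d21, and the fibroblast shares above lay well over theirs.

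Across the edge of the gate, the 190 cells with 1 UMI of OGN had a DCN level of 13.3 and a MFAP4 level of 6.09, and the 239 with 2 or more had 18.7 and 7.44. The 607 cells that met every other condition but had no OGN had 5.94 and 3.96. The 24 members whose sum over the 5 matrix genes was 5 or 6 had a level of 18.4 of KRT8, a keratin of epithelial cells, and the 22 cells just under the limit (sum of 3 or 4) had 16.3. The 178 cells excluded only by a single UMI of ADAMDEC1 had DCN at 16.5 and MFAP4 at 6.64.

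The working name of these cells was matrix fibroblasts, after OGN, DCN, MFAP4 and COL1A1. All 4 genes were present in every library. The DCN level was 21.1, 16.9, 27.2, 11.3 and 10.9 in the 5 libraries from d0 to d21, that of COL1A1 11.7, 7.55, 39.2, 24.99 and 25.4, and that of COL3A1 48.3, 33.5, 45.6, 69.7 and 54.9. MFAP4, a protein of elastic microfibrils and the only one of the 4 that the gate did not use, was at 5.65, 6.98, 9.60, 7.00 and 6.07. However, fibroblasts with ADAMDEC1 alone had MFAP4 at 7.46, 6.79 and 5.58 at d0, d1 and d21, and the difference was -0.01 ± 0.23 (log2, SE, n = 3 libraries). After thinning to 1000 UMIs, MFAP4 was found in 53.4% of the OGN fibroblasts, 50.2% of the cells with ADAMDEC1 alone and 43.5% of the cells with both genes at d1. The values of MFAP4 thus did not set the OGN fibroblasts apart from those with ADAMDEC1 alone, while the gated cells with none of the 3 class genes had less, at 3.96.

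RNA of other cell types was present in the OGN fibroblasts. The 5 epithelial markers summed to a level of 14.0, 26.8, 3.20, 0.667 and 7.52 in the 5 libraries from d0 to d21, led by KRT8 or KRT19, with EPCAM, KRT8, KRT18 and CLDN7 at 0 at d14. In the cells with ADAMDEC1 alone the same sum was 18.4, 24.2 and 15.02 at d0, d1 and d21. The smooth muscle markers summed to 4.97, 8.86, 46.4, 34.3 and 11.9, and those of blood endothelium to 0.171, 4.66, 0, 1.33 and 0.910. Glial markers stood at 6.67 at d14 and at no more than 1.03 elsewhere. The part of these RNAs in the results below was not tested, but each main count was also taken without the barcodes that held UMIs of other types.

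Clustering of the gated fibroblasts of 1 library at a time, without the genes of the gate, did not gather the OGN fibroblasts in 1 cluster. At d1, cluster 0 (982 cells, led by SCARA5, SPON1, FBLN1, AGT and TNXB) held 35.7% of them, cluster 2 (429 cells of low depth, with CXCL13, IGFBP5 and FREM1) 26.8%, and cluster 1 (882 cells, led by CALCB, EDNRB, NEFL and ASPN) 18.2%. The OGN level was nevertheless highest in cluster 1, at 13.7 against 4.47 in cluster 0, and cluster 1 held 48.0% of the d1 cells with both OGN and ADAMDEC1. At d21, cluster 0 (190 cells, led by HSD11B1, C3, CHODL, CFD, FBLN1 and DPT) held 48.4% of the OGN fibroblasts and cluster 1 (175 cells of low depth) 35.9%. A d21 cluster with a higher OGN level of 10.7 (SOX6, WNT16 and ASPN) held 1 of the 64. Clusters led by markers of other cell types held 16.9% of the OGN fibroblasts at d1, 36.4% (4 of 11) at d14 and 9.38% at d21. One of these, d1 cluster 7, with the smooth muscle genes MYH11, TAGLN and ACTA2, had the highest share of OGN fibroblasts at d1 (16 of 56 cells, 28.6%). It held 4.92% of the d1 OGN fibroblasts and 1.03% of the cells with ADAMDEC1 alone, with MFAP4 at 36.4 against 11.9 in cluster 0. The name of a single type was thus not borne out, and the cells are called by their gate.

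**Figure D2:**
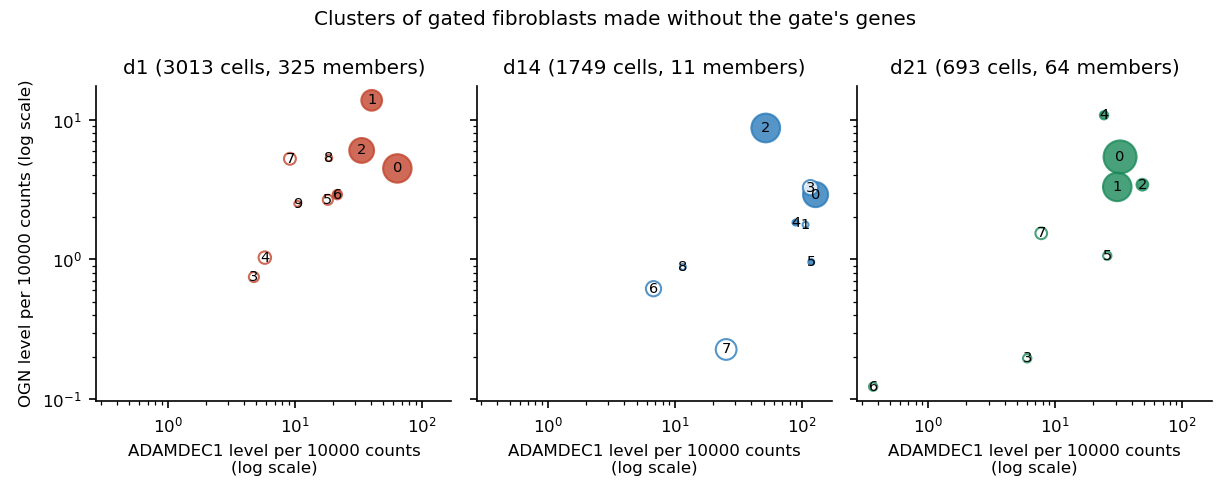
OGN level against ADAMDEC1 level (counts per 10000, log axes) for each cluster of gated fibroblasts at d1, d14 and d21; the circle area grows with the share of that library's OGN fibroblasts in the cluster, open circles are clusters of other cell types and the numbers are cluster numbers. The largest circles of d1 and d21, cluster 0 in each (35.7% and 48.4%), do not lie at the highest OGN levels of their libraries, whereas that of d14, cluster 2 (36.4%, 4 of 11 cells), does, at 8.70.

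To ask how the OGN fibroblasts differed from fibroblasts with ADAMDEC1 alone, the counts of each class were summed per library and compared over the 3 libraries with at least 20 cells of both (d0, d1 and d21) by the edgeR quasi-likelihood test, with the library as a block. OGN fibroblasts had more RNA of CHODL, of the SLRP genes PRELP and ASPN, of ELN and of SLIT3, and less of the chemokines CXCL13 and CXCL14, of RUNX1 and of IGF1. At an adjusted p (Benjamini-Hochberg) of 0.05, 14 of 7290 genes were higher (0.192%) and 14 lower (0.192%), 0.384% in all, and the genes of the gate were left out. The block removes differences between libraries, so the spread in this test is that of the class difference over 3 libraries of different age. Both classes of a library share its 5 piglets, and the spread among the piglets of an age is not measured.

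CHODL, which encodes chondrolectin, a membrane protein of the C-type lectin family, differed most clearly. Its level in OGN fibroblasts was 1.71 at d0, 0.940 at d1 and 2.24 at d21, and in the ADAMDEC1 cells 0, 0.146 and 0.205. The lowest OGN value exceeded the highest of the other class, and the difference was 3.03 ± 0.31 (log2, SE; edgeR adjusted p = 5.21e-08). It was also the only gene called by DESeq2. At d7 and d14, which did not enter the test, CHODL was at 11.2 (in 2 of 6 cells) and 3.33 (3 of 11 cells), against 0.676 and 0.155 in the ADAMDEC1 cells.

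Among the SLRPs, 2 of the 6 tested were higher and none lower, with a median difference of 0.92 on the log2 scale against -0.00 over all genes tested. PRELP, which links collagen to basement membranes, was at 0.514, 0.678 and 3.82 against 0, 0.175 and 1.07, higher in each of the 3 libraries, a difference of 1.91 ± 0.26 (edgeR adjusted p = 2.82e-05). Asporin (ASPN), the neighbour of OGN on chromosome 3 and an inhibitor of TGF-beta signalling, was at 0, 0.642 and 0.303 against 0, 0.0982 and 0.0734, a difference of 2.59 ± 0.40 (adjusted p = 0.000293 by the same test). BGN (-0.34), FMOD (0.39) and PODN (1.18, adjusted p = 0.446) did not pass. The other family members were nearly absent. KERA, EPYC and OPTC had no counts in OGN fibroblasts, and OMD, which lies between OGN and ASPN, was counted only at d1, at a level of 0.11.

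In the elastic fibre list, 1 of 16 genes passed, 14 of 16 lay above 0 and the median was 0.35. The gene was ELN (tropoelastin), at 1.03, 0.569 and 3.70 against 0.305, 0.251 and 1.58 (1.22 ± 0.25, edgeR adjusted p = 0.00844). FBLN5 (1.00, adjusted p = 0.173) and MFAP2 (0.87, adjusted p = 0.209), which bind elastin and its microfibrils, did not pass. TIMP3, an inhibitor of matrix metalloproteases that is held in the matrix, was at 2.23, 1.17 and 3.94 against 0.609, 0.542 and 1.73 (1.21 ± 0.24, edgeR adjusted p = 0.00727), and was higher in each of the 3 libraries. SPARCL1, a secreted matricellular protein, was the most abundant of the higher genes (30.3, 21.7 and 27.0 against 17.4, 10.7 and 13.4). The classes did not overlap, and the difference was 0.98 ± 0.22 (edgeR adjusted p = 0.0245). MGP, an inhibitor of calcification, was higher at d1 (0.678 against 0.182) and d21 (2.06 against 0.249) but lower at d0 (2.23 against 3.35), a fitted 1.70 ± 0.33 (edgeR adjusted p = 0.00641).

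Of the secreted signals, SLIT3, a guidance ligand of the ROBO receptors, was at 2.23, 0.479 and 8.07 against 0.305, 0.211 and 2.74 (1.49 ± 0.26, edgeR adjusted p = 0.00193). FREM1, an extracellular protein of the basement membrane zone (1.24 ± 0.26), IGFBP5, which binds insulin-like growth factors (1.16 ± 0.26), and ANGPTL1 (1.99) were also higher. The chemokine CCL19 (1.70) was at 0, 0.0452 and 4.43 against 0.609, 0.0291 and 0.939, lower at d0, with 73 of its counts in the d21 OGN fibroblasts. Fibrillar collagens showed no call in 7 genes tested (median -0.16), and neither did 18 genes of collagen processing (median 0.10) or 11 complement genes (median -0.14). COL14A1, a collagen that binds to fibril surfaces, had a difference of 0.53 and did not pass.

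**Figure D3:**
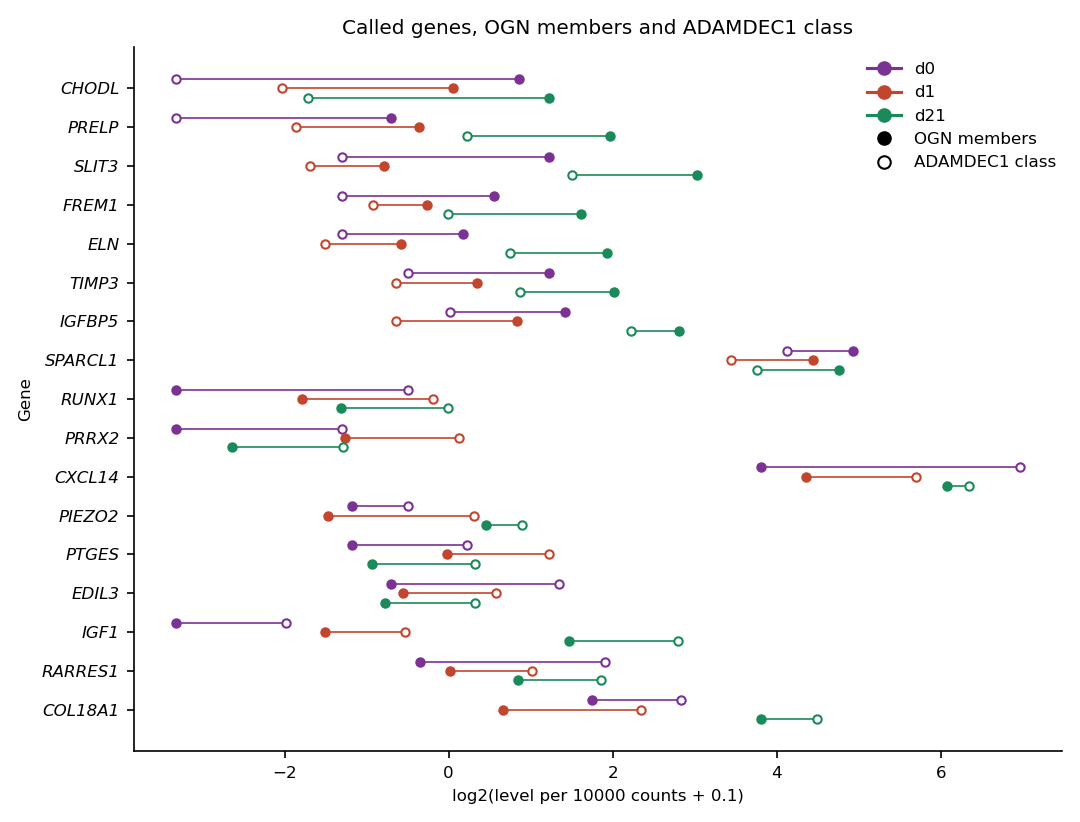
Level per library (log2 of counts per 10000 plus 0.1) at d0, d1 and d21 in OGN fibroblasts (filled, marked OGN members) and in fibroblasts with ADAMDEC1 alone (open, ADAMDEC1 class), for genes called by edgeR that lie on the same side in each library and have a level of at least 0.5 in one class over the pooled libraries, up to 10 in each direction. CHODL has the largest fitted difference of the genes plotted, 3.03 log2 units, and CXCL14 stands at 13.9 against 124.5 counts per 10000 at d0 but at 67.4 against 81.2 at d21.

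The genes lower in OGN fibroblasts included RUNX1, a transcription factor (-1.98 ± 0.36, edgeR adjusted p = 0.00256), and PRRX2, a homeobox factor of mesenchyme (-1.72). The chemokines held 2 of the 14: CXCL13, which attracts B cells, was at 0, 0.0452 and 0.0607 against 1.67, 0.378 and 0.235 (-3.13 ± 0.54, edgeR adjusted p = 0.00171). CXCL14 was at 13.9, 20.3 and 67.4 against 124.5, 51.9 and 81.2, lower in each library but by far the most at d0. Its difference of -1.48 ± 0.31 (edgeR adjusted p = 0.00989) became -0.83 without d0 and no longer passed. IGF1, a growth factor, was at 0, 0.253 and 2.67 against 0.152, 0.593 and 6.84 (-1.33 ± 0.28, edgeR adjusted p = 0.0104). COL18A1, the basement membrane collagen that yields endostatin, was at 3.25, 1.48 and 13.9 against 7.00, 4.99 and 22.3 (-1.17 ± 0.25, edgeR adjusted p = 0.0118) and was the only call among 19 basement membrane and collagen VI genes. PTGES, the prostaglandin E synthase (-1.36 ± 0.27), the stretch-gated channel gene PIEZO2 (-1.41), EDIL3 (-1.34) and RARRES1 (-1.21) were lower as well.

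In 13 interferon-response genes no gene passed and none lay above 0 (median -0.46), and in 5 MHC class II genes none passed (median -0.92). No gene passed among 13 mitochondrially encoded genes, all below 0 (median -0.30), or among 19 immediate early and heat shock genes, 18 of them below 0 (median -0.35). Of 28 mesenchymal transcription factors on the list, which does not hold RUNX1 or PRRX2, none passed (median 0.08). The growth factor and receptor list gave 2 of 23 genes higher, and the insulin-like growth factor list 1 higher (IGFBP5) and 1 lower (IGF1) of 8. Of the markers of other cell types, the 5 epithelial genes gave no call and a median of -0.23.

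The counts of calls rested on few libraries. Without d0, 7 genes were higher and 2 lower, without d21, 4 and 4, and without d1, 13 and 20, and DESeq2 called 1 gene higher and none lower, although all 28 genes kept their sign in each alternative that tested them. After thinning, which left d1, d14 and d21 with enough cells in place of d0, d1 and d21, 10 were higher and 10 lower, and 9 of the 23 calls that could be tested were kept. CHODL passed without each library in turn. ASPN was tested in only 1 such fit, without d0, and passed. It had no counts at d0 in either class, so that fit rests on the same ASPN counts (71 against 27 at d1) and is no check of its call. Each of the other genes named above as called was not called without at least 1 library. Among them were PRELP (edgeR adjusted p = 0.0524) and SLIT3 (edgeR adjusted p = 0.445), both without d21. The value moved most for CXCL14 without d0 (-0.83), PIEZO2 without d1 (-0.51) and MGP without d21 (1.02).

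The second comparison set OGN fibroblasts against the cells in which OGN and ADAMDEC1 were found together. These may hold UMIs of WNT5A, which the OGN fibroblasts by the gate do not. By the same fit, 19 of 6736 genes were higher in OGN fibroblasts (0.282%) and 35 lower (0.52%), 0.802% in all. With WNT5A at 0 in the cells with both genes too (20, 847 and 132 cells at d0, d1 and d21), 10 of 5343 genes were higher (0.187%) and 8 lower (0.15%), and 15 of the 48 calls that could be tested were kept. CHODL, SLIT3 and PRELP were higher and EDNRB, PTN, COL4A5 and RUNX1 lower in both fits. Both comparisons use the same OGN sums and are not independent of each other.

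WNT5A marks the subepithelial fibroblasts, so the gate bears directly on their genes. Of the subepithelial list, 7 of the 17 genes tested were lower and none higher, with a median of -0.95 on the log2 scale against 0.01 over all genes, but with WNT5A at 0 in both classes 1 of 16 was lower (EDNRB) and the median was -0.50. The d1 cluster led by CALCB, EDNRB, NEFL and ASPN, which held 48.0% of the cells with both genes, had WNT5A in 48.3% of its cells, against 11.9% in cluster 0. SOX6, a transcription factor, was at 0.171, 0.506 and 0.121 at d0, d1 and d21 in OGN fibroblasts and at 0.457, 1.34 and 2.97 in the cells with both genes (-1.88 ± 0.30, edgeR adjusted p = 0.000369), but with WNT5A at 0 in both classes the difference was -0.78 and did not pass. EDNRB, the endothelin B receptor, was at 0.171, 0.786 and 0.788 against 0.762, 2.69 and 2.72 (-1.76 ± 0.25, edgeR adjusted p = 7.72e-05), and at -1.15 it passed with WNT5A at 0 too (edgeR adjusted p = 0.00105). In both genes each OGN value lay below that of the same library's other class. PDGFRA, the receptor used to recognise these cells, was at 2.40, 2.62 and 3.40 against 3.05, 6.29 and 6.57 (-0.98 ± 0.23, edgeR adjusted p = 0.0269), and at -0.50 did not pass with WNT5A at 0. The remaining members were BMP5 (-1.03), FOXL1 (-1.12), PDGFD (-1.01) and POSTN (-1.01), a ligand, a transcription factor, a growth factor and a matricellular protein, none of which passed with WNT5A at 0 in both classes (-0.63, -0.74, -0.47 and -0.73).

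The heparin-binding growth factor PTN was lower too, at 2.91, 8.55 and 7.22 against 11.7, 19.0 and 16.4 (-1.28 ± 0.22, edgeR adjusted p = 0.000691). Others were RUNX1 (-1.88), the cation channel gene TRPA1 (-1.87), COL4A5, a chain of basement membrane collagen (-1.60), the proprotein convertase PCSK6 (-1.44) and the ephrin receptor EPHA3 (-1.25). ASPN, higher against the ADAMDEC1 cells, was lower here (-1.39 ± 0.25, edgeR adjusted p = 0.0012), but not with WNT5A at 0 in both classes (-0.73). TRPA1 (-1.18), PCSK6 (-0.61) and EPHA3 (-0.84) did not pass there either. Of the 6 SLRPs tested against the cells with both genes, 1 was higher (PRELP) and 1 lower (ASPN), with a median of 0.05. With WNT5A at 0 in both classes 1 of 6 was higher and none lower, with a median of -0.003.

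CHODL (1.41 ± 0.24, edgeR adjusted p = 0.000691), SLIT3 (1.33 ± 0.24, adjusted p = 0.00167 by the same test), PRELP (1.30 ± 0.26, adjusted p = 0.00522 by the same test) and ELN (0.88, adjusted p = 0.0422 by the same test) were higher in OGN fibroblasts. So were MGP (1.80), FREM1 (0.83), CCL19 (1.78), ANGPTL1 (2.18) and complement C3 (0.94 ± 0.21), of which MGP and C3 passed with WNT5A at 0 in both classes and FREM1 and CCL19 did not, nor did ELN (0.51). Without barcodes of other types, however, the C3 difference lost its call and turned its sign, as given under the processing. OLFM4, a stem cell and crypt gene of the epithelium, had a difference of 2.45 ± 0.32 (edgeR adjusted p = 2.92e-05), at 0.171, 2.23 and 8.67 against 0, 0.822 and 0.512. Its d21 counts lay in 8 of the 64 cells, and without the clusters of other cell types the difference was 0.90 and did not pass. Without the same clusters PI3, a secreted inhibitor of elastase, had a difference of 0.57 in place of 1.85, and the lectin FCN2 one of -0.05 in place of 1.23. The epithelial markers summed to 14.0, 26.8 and 7.52 in OGN fibroblasts and to 18.3, 24.8 and 3.27 in the cells with both genes. All 12 mitochondrially encoded genes tested lay above 0 (median 0.27) and 16 of 19 immediate early and heat shock genes below 0 (median -0.44), with no call in either list.

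**Figure D4:**
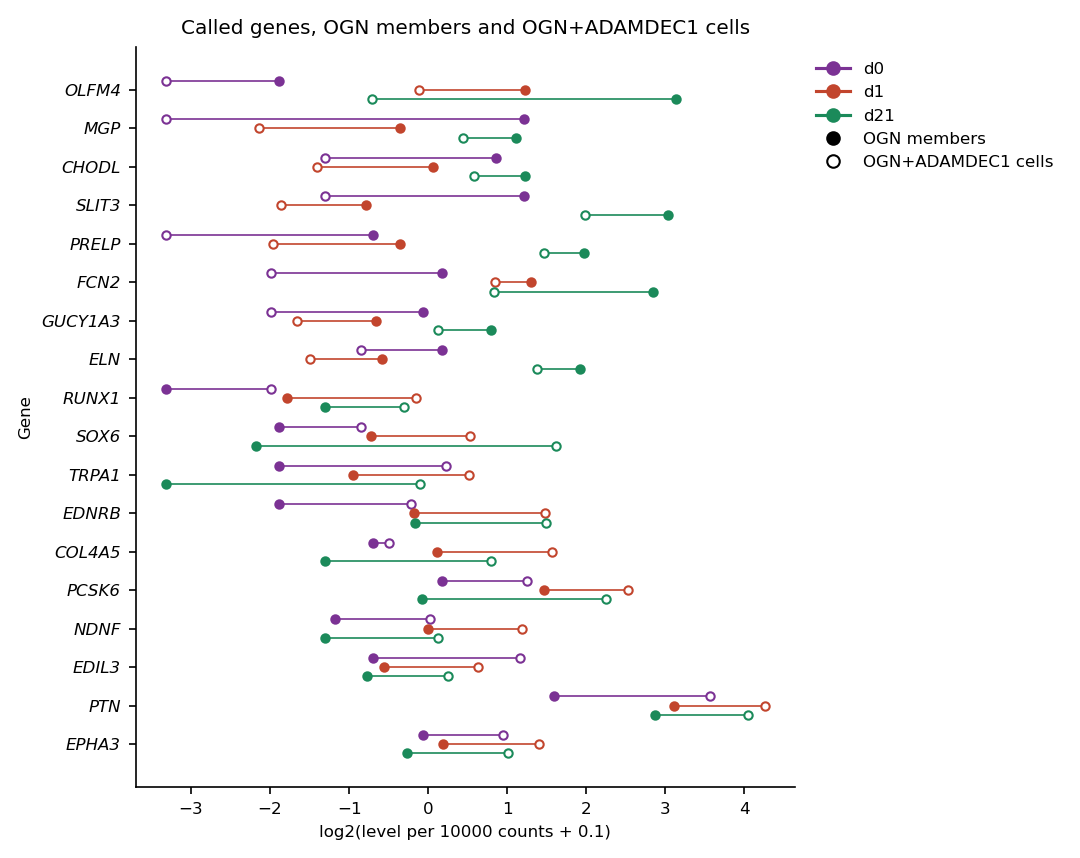
Level per library (log2 of counts per 10000 plus 0.1) at d0, d1 and d21 in OGN fibroblasts (filled, marked OGN members) and in fibroblasts with both OGN and ADAMDEC1 (open), for genes called by edgeR that lie on the same side in each library and have a level of at least 0.5 in one class over the pooled libraries, up to 10 in each direction. SOX6 and EDNRB lie lower in the OGN fibroblasts of each library, by 1.88 and 1.76 log2 units in the fit, and CHODL lies 1.41 higher. With WNT5A at 0 in both classes the SOX6 difference was -0.78.

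Without d0, 42 genes were higher and 70 lower, without d21, 13 and 16, and without d1, 4 and 6. DESeq2 called 2 higher and 3 lower, and after thinning each cell to 1000 UMIs, again over d1, d14 and d21, 6 were higher and 5 lower. The thinned fit kept 7 of the 51 calls that could be tested, among the genes named here SOX6, COL4A5, MGP, CHODL, SLIT3 and PRELP. Of the genes named above, SLIT3, CCL19, ANGPTL1, OLFM4, PI3, EDNRB, PTN, RUNX1, TRPA1 and COL4A5 passed in each fit with 1 library left out that tested them, and the others were not called in at least 1 of these fits. CCL19 and PI3 had no counts at d0 in either class, so their fits without d0 rest on the same counts and are no check of their calls. CHODL (0.95) and PRELP (0.66) were not called without d1, and SOX6 (-1.37), PDGFRA (-0.96), ASPN (-1.38) and POSTN (-0.55) not without d21. Other values that moved by over 1.5 times were PRELP (2.19), OLFM4 (1.497) and FCN2 (0.68) without d21 and MGP (1.19), PDGFD (-1.84) and FCN2 (2.13) without d1.

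The third question was how OGN fibroblasts differed between ages. Since each age is 1 library, these are differences between libraries, given with counting intervals and without a test. A gene was counted as higher or lower when its level was at least 0.5 in one library, the log2 ratio (0.1 added to both levels) was at least 1 either way, and the exact Poisson 95% intervals did not overlap. The gate fixes the sum and the presence of its own genes, and these were left out. Comparisons that involve the 11 cells of d14 are thin.

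At d21 against d1, more genes were higher than lower on the SLRP, elastic fibre, collagen processing, complement and interferon-response lists. On the immediate early and heat shock list more were lower than higher, and no list was tested. Of the 4200 genes past the level, 883 were higher at d21 (21%) and 308 lower (7.33%), 28.4% in all, and the median log2 ratio over all 4200 was 0.43. For many of the genes named below, levels in fibroblasts with ADAMDEC1 alone from the same libraries are given in the same order. Whether the ratios of the classes differ was not tested.

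COL14A1 had the largest ratio of the genes in the matrix lists. Its level was 0.398 (0.289 to 0.534) at d1 and 12.4 (10.7 to 14.2) at d21, in 35 of 325 and 48 of 64 cells. In the ADAMDEC1 cells it was 0.488 and 6.98, and in cells with markers of epithelium, leukocytes or endothelium at d21 it was at most 0.28. FBLN1, a fibulin of elastic fibres and basement membranes, was at 1.45 and 12.5 (1.42 and 7.78 in the ADAMDEC1 cells), and fibronectin (FN1) at 3.47 and 28.6 (5.64 and 33.5). SLIT3 was at 0.479 (0.359 to 0.627) and 8.07 (6.75 to 9.56), against 0.211 and 2.74.

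By list, 4 of 6 SLRPs past the level were higher and none lower (BGN, FMOD, PRELP and PODN; median 1.46), as were 7 of 12 elastic fibre genes with none lower (median 1.25) and 8 of 15 collagen processing genes with none lower (median 1.21). ELN was at 0.569 and 3.70 (0.251 and 1.58 in the ADAMDEC1 cells), PRELP at 0.678 and 3.82 (0.175 and 1.07), and BGN at 1.13 and 2.97 (1.72 and 3.05). Matricellular genes gave 10 of 15 higher, with SPON1 at 0.452 and 3.15 (0.622 and 2.10 in the ADAMDEC1 cells), and 1 lower, POSTN, at 3.84 and 1.46 (4.95 and 4.75). Of 17 basement membrane and collagen VI genes, 7 were higher and COL4A5 was lower (0.976 and 0.303). COL4A5 was among the leading genes of d1 cluster 1, which held 18.2% of the d1 OGN fibroblasts, while the d21 cluster with SOX6 and ASPN held 1 of 64, and the part of this shift in the levels was not tested. Subepithelial genes gave 3 higher and 3 lower of 13 (median -0.50). MFAP4 was at 6.98 and 6.07 and was not counted.

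Complement genes were higher in 9 of 11 cases and lower in none (median 1.79). Factor D (CFD), an activating protease, was at 20.9 and 59.0, C1R, a protease of the first component, at 3.36 and 12.5 (5.12 and 13.5 in the ADAMDEC1 cells), and C3, the central component, at 0.723 and 4.31. In the ADAMDEC1 cells C3 was at 0.593 and 1.85. The protease inhibitor A2M was at 0.190 and 12.6, against 0.156 and 2.36. C3 and A2M were thus higher at d21 in OGN fibroblasts than in the ADAMDEC1 cells of that library, whereas CFD was lower (79.6 in the latter). These orders between classes at d21 have no test.

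Chemokines gave 6 of 9 higher, among them CCL2, which attracts monocytes (8.22 and 26.0), CXCL12 (3.00 and 7.22) and CXCL14 (20.3 and 67.4), and 1 lower, CXCL10 (2.21 and 0.910). In the ADAMDEC1 cells CCL2 was at 4.73 and 14.5, CXCL14 at 51.9 and 81.2 and CXCL10 at 3.03 and 2.67. CCL5 had the largest ratio of all, 0.172 and 19.3 (log2 ratio 6.16), but in d21 cells with leukocyte markers its level was 151.4, and in those with epithelial markers 13.4. Interferon-response genes were higher in 6 of 11 cases, with IFI6 at 1.74 and 41.4 and MX1 at 0.117 and 2.61, and IRF1 was lower (2.02 and 0.303). In the ADAMDEC1 cells IFI6 was at 3.22 and 49.5 and MX1 at 0.186 and 2.80. JCHAIN, a plasma cell gene, had no counts at d1 and a level of 1.39 (0.884 to 2.09) at d21. The part of RNA from other cells in these values was not tested.

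**Figure D5:**
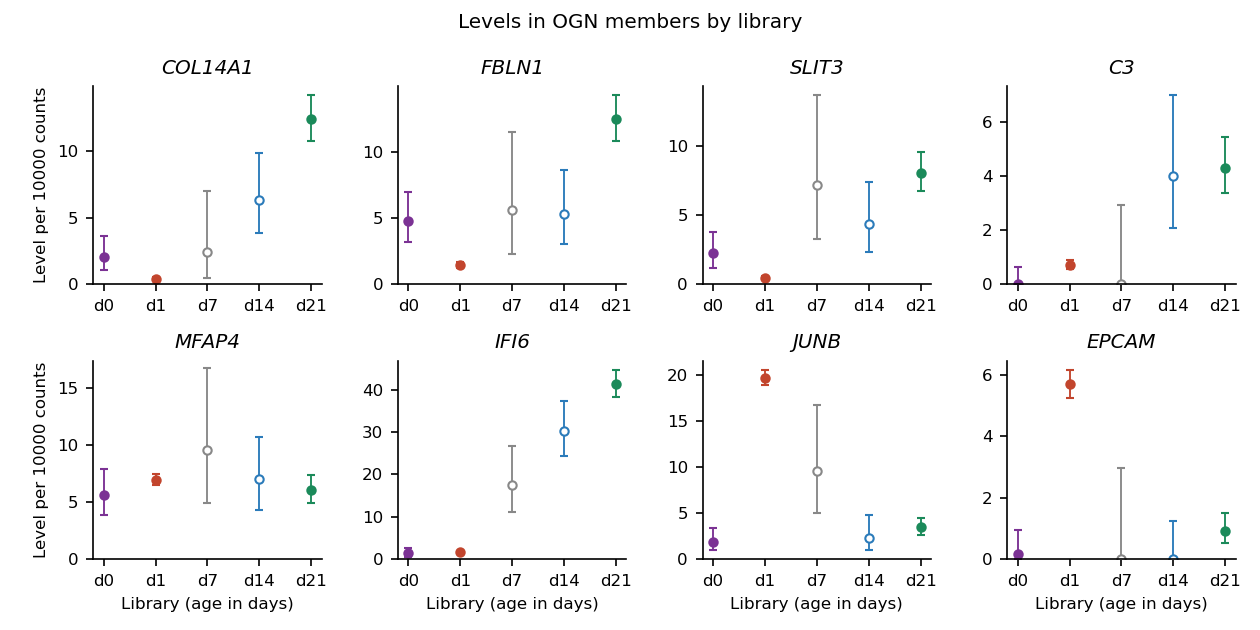
Level in OGN fibroblasts (counts per 10000) by library for 8 genes, with exact Poisson 95% intervals; open points are d7 and d14, with fewer than 20 cells. COL14A1, FBLN1, SLIT3 and C3 are lower at d1 than at d21 with intervals apart, MFAP4 is at 6.98 and 6.07, and JUNB and EPCAM are highest at d1.

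Of 17 immediate early and heat shock genes, 8 were lower at d21 and 3 higher (median -0.82). JUN, at 34.1 and 19.2, was not counted. JUNB was at 19.7 and 3.46, FOSB at 15.1 and 1.88, EGR1 at 14.6 and 3.76 and ZFP36 at 11.2 and 1.21, and in the ADAMDEC1 cells JUNB was at 20.7 and 8.04. The 3 higher genes, HSPA6 (0.515 and 7.16), HSPH1 (3.44 and 7.95) and HSPB1 (2.40 and 5.94), encode heat shock proteins. Of 19 mesenchymal transcription factors, 7 were higher (TCF21, NR2F1, HIC1, PITX1, TCF4, ZEB2 and NFIA) and 2 lower (KLF2 and KLF4), with a median of 0.57. TCF21 was at 3.00 and 6.85, KLF2 at 3.20 and 0.667 and KLF4 at 5.46 and 2.43. Of 12 mitochondrially encoded genes past the level, 6 were lower, and their share of the counts of OGN fibroblasts was 8.67%, 9.95%, 14.7%, 7.26% and 5.55% from d0 to d21.

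Many of the large falls were in genes with a higher level in other cell types. DMBT1, CLCA1, PRAP1, DISP2, LYPD8, TSPAN1, PERP and TMIGD1 had their highest d1 level in cells with epithelial markers, and CLEC3B in cells with endothelial markers (35.4, against 2.58 in OGN fibroblasts). DISP2 was at 29.2 at d1 in OGN fibroblasts, in 279 of 325 cells, and at 88.6 in the epithelial cells of that library. It was at 0.910 at d21. With the barcodes that held UMIs of other types left out, 351 genes were higher and 100 lower at d21. CLCA1 (-2.64), PERP (-1.77), TMIGD1 (-2.44) and CLEC3B (-2.21) were then no longer counted as lower. DMBT1, PRAP1, DISP2, LYPD8 and TSPAN1 still were. Without the clusters of other types 201 were lower, and of these named genes only PERP (-2.58) was no longer counted.

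With its 23 cells, d0 stood between these libraries for several genes. COL14A1 was at 2.06 at d0, FBLN1 at 4.80 and SLIT3 at 2.23, each above d1 and below d21. JUNB was at 1.88 at d0, lower than at d1 and d21. KRT8 was at 7.36 at d0, in 6 of the 23 cells, and at 8.27 at d1.

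The 11 cells of d14 gave 554 genes higher than at d1 (11.9%) and 153 lower (3.27%), 15.1% of the 4672 past the level, with a median log2 ratio of 0.70. A2M was at 10.3, IFI6 at 30.3 and COL14A1 at 6.33 at d14. SOX6 was at 3.67 and EDNRB at 7.66, both above d1 and d21, and in 4 of the 11 cells each. Of the 11 cells, 4 lay in d14 cluster 2, led by ASPN and SOX6, against 1 of 64 in the d21 cluster with SOX6 and ASPN among its leading genes. Against d14, 45 genes were higher at d21 (0.898%) and 114 lower (2.27%), 3.17% of 5013. Without barcodes of other types these counts were 20 and 38. FCN2 was higher at d21 (7.10 against 0.333, in 18 and 1 cells), and SOX6, GREM1 and PDGFA were lower. In the ADAMDEC1 cells FCN2 was at 2.19 at d21 and 7.91 at d14, SOX6 at 0.191 and 0.108, GREM1 at 0.0147 and 0 and PDGFA at 0.411 and 0.0773. FCN2 was also the leading gene of d14 cluster 8, a cluster with epithelial markers. Genes with no counts at d14, such as SCARA5 (2.85 at d21) and IGF1 (2.67), cannot be ranked, since the limit at d14 is 1.00. GREM1, a BMP antagonist, was counted in 1 cell at d14. All glial markers past the level were higher at d14 than at d1 (4 of 4). The d14 and d21 comparisons with d1 use the same d1 cells, and the d14 cells enter 2 of the 3 comparisons.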

How the data were processed

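The authors counted UMIs with Cell Ranger 3.1.0 on the porcine genome susScr11 (Sscrofa11.1) and deposited 1 matrix of raw counts per library, covering 20648 genes, with no normalization. The labels and the paper name different kit versions. Barcodes with at least 200 genes were kept (10272 to 16892 per library, with 47921183 to 91863866 counts) and no doublet caller was run. The members, gene lists and alternatives were chosen with earlier results of these data known.

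Classes with at least 20 cells in a library were summed and tested with edgeR 4.0.16 (filterByExpr, TMM, quasi-likelihood, R 4.3.3), with DESeq2 1.42.0 as an alternative. The library was a block, since both classes of a library come from the same piglets. The planned comparison with cells of WNT5A alone could not be fitted, because no library had 20 of them, and the comparison with cells of both OGN and ADAMDEC1, and d21 against d1, were added after the counts were seen. Named were list genes and, per direction, the 10 largest changes among called genes, in class comparisons with a level of at least 0.5 and 1 direction in every library. CHODL at d7 and d14 and the d0 values were chosen after they were seen. Ages have no test. Clusters came from python-igraph 0.11.9 (Leiden, resolution 0.5, 1000 variable genes, 15 components, 15 neighbours). On simulated data, 90.9% of genes changed by 2 log2 units were recovered in the ADAMDEC1 comparison (26.4% at 1 unit), with 0 of 6493 unchanged genes called, against 5 of 6020 in the comparison with cells of both genes. For d21 against d1, 21 of 3182 were called, but those simulated counts held Poisson counting error alone, as the intervals do. The real counts also vary between cells (GREM1 had 13 counts in 1 cell at d14), so this is not an error rate of the age calls. A few named genes were left out of the text.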

Additional observations from a re-analysis of the deposited data

How the results depend on the processing

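Each result was recomputed with 1 choice changed at a time, but a change of the cells could also change which libraries had enough of them. The fits gated at 2 UMIs and those without barcodes of other types held d1 and d21 only, and the thinned fits d1, d14 and d21. With at least 2 UMIs of OGN required, the share of OGN fibroblasts among gated fibroblasts became 12.2%, 5.97%, 2.30%, 0.343% and 5.34% from d0 to d21. After thinning it was 25.7%, 13.2%, 2.99%, 0.961% and 10.2%. Against the ADAMDEC1 cells, the genes higher and lower were 1 and 0 by DESeq2, 0 and 0 without the replicate block (37 genes at an unadjusted p under 0.05), and 47 and 45 with classes gated at 2 UMIs. They were 30 lower without the filter on low counts, 25 higher without barcodes of other types, and 4 to 13 higher and 2 to 20 lower when 1 library was left out. The unchanged gate over d1 and d21 gave 7 and 2. Against the cells with both genes they were 2 and 3 by DESeq2, 0 and 0 without the replicate block (27 at an unadjusted p under 0.05), 33 higher when gated at 2 UMIs, 6 and 5 after thinning, 10 and 8 with WNT5A at 0 in both classes (chosen, as were thinning and leaving out clusters, after seeing the data), and 4 to 42 higher and 6 to 70 lower with 1 library left out. The unchanged gate over d1 and d21 gave 42 and 70. For the ages, with at least 2 UMIs of OGN 584 genes were higher at d21 than d1, 353 at d14 than d1 and 25 at d21 than d14. Without barcodes of other types the counts were 351 and 100, 220 and 81, and 20 and 38, and without clusters of other types 201 were lower at d21 than d1. Of the genes named here, the signs turned against the cells with both genes for FCN2 (-0.29 gated at 2 UMIs, -0.051 without clusters of other types, -0.080 thinned) and for C3 (-0.0091 without barcodes of other types). At d21 against d14 the sign turned for XKR4 (1.29 without barcodes of other types, in place of -3.92), which was counted in 1 OGN fibroblast of each library. The cause of these changes was not tested. Under these alternatives 40 summary values moved, given above singly or as ranges, and 74 did not. Values of single genes were taken for all called genes of the class comparisons and the leading genes of each age comparison, named here or not. Of these values 784 stayed on their side of the threshold and 449 lost the call. The depth limits the d7 and d14 values most, with 12506 and 30007 counts.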

Other observations

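Markers of adventitial fibroblasts, the fibroblasts around vessels, were uneven in the OGN fibroblasts. PI16 had no counts in any library. DPT, a matrix protein of connective tissue, was at 5.99, 4.02, 5.60, 0.667 and 4.85 in the 5 libraries from d0 to d21, and CD34 had UMIs in 14 of 325 cells at d1 and 9 of 64 at d21. CLEC3B was counted only at d1, at 2.58, below its level of 35.4 in the endothelial cells of that library. The lamina propria markers summed to a level of 14.9, 7.61, 9.60, 26.7 and 28.0, led by APOE, a lipid carrier, although the gate removed every cell with ADAMDEC1.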
